A study of Mus musculus with 2 samples.

Results

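Complement is a set of plasma and tissue proteins that tag cells and debris for uptake, draw in leukocytes and can pierce membranes. The classical pathway starts when C1q binds a surface and the proteases C1r and C1s, which travel with it, cut C4 and C2. The lectin pathway starts from sugar-binding proteins, the alternative pathway amplifies through factor B, and all routes meet at C3, whose fragments act on receptors such as the one encoded by C3ar1. In skin, macrophages are a main source of C1q, while keratinocytes and fibroblasts can make C3 and factor B.

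The complement component genes described here are the 9 genes C1qa, C1qb, C1qc, C1ra, C2, C4b, C3, Cfb and C3ar1, taken by the gene name that the array files give to their probes. They are 9 of 37074 gene names on the array and have 13 probes. RNA came from skin tumours of male mice, 1 sample labelled P2ry6-/- and 1 labelled P2ry6+/+ (wild type, WT), and each was read on 1 single-colour Agilent array. P2ry6 encodes a G protein-coupled receptor for the nucleotide UDP. Both groups were 2 months old at the start, and tumours were induced with ultraviolet B (UVB) at 180 mJ/cm2 for 10 weeks, raised by 10 mJ/cm2 a week to 300 mJ/cm2 at week 22 and held there to week 40. The sources used here give neither the strain, nor the deleted part of P2ry6, nor how many tumours or mice each RNA sample holds.

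Each genotype has a single array (n = 1), which allows no test, and genes are described by the size of their difference. Levels are log2 processed signal relative to the array's 75th percentile, differences are KO-labelled minus WT-labelled, and a gene was called at 2-fold, which is 1 log2 unit. The median non-control signal was 40.0 units on the KO-labelled and 39.9 on the WT-labelled array, and no spot was saturated. P2ry6 itself was higher on the array labelled as its knockout, with a difference of 1.29 ± 0.01 (SD, n = 2 probes), against the label. Whether its probes lie in the deleted part is unknown, so the text writes KO-labelled and WT-labelled, and every direction rests on those labels. All 14 keratinocyte markers were well above background on both arrays. Replicate spots of the same probe gave differences with an SD of 0.14 over 291 probes. Of these, 280 read 1000 signal units or more on the WT-labelled array. The SD was 0.155 for the 5 from 200 to 1000 units, 0.21 for the 3 from 50 to 200 and 0.32 for the 3 under 50. Different probes of a gene differed by a root mean square SD of 0.37. On the scale of the spike-in probes every difference is 0.46 lower, so any printed here between 0 and 0.46 lies below 0 there. The median of all measured genes is −0.52 on that scale, beside −0.06 on the reported one. There 1.6% of genes are at least 2-fold higher and 15.7% lower, the background for every spike-in value below. The SDs between spots and between probes are technical errors only, and the spread between mice is unknown.

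Sequences are printed for the C1qa, C1qb, C1qc and C3 probes well above background on both arrays, and for both Cfb probes. All are 60-base oligonucleotides, given as in the array files so that the stretch each probe matches can be seen. The mm9 positions come from the annotation in those files, and exons of that build were not analysed here. No base is set in capitals.
C1qa, chr4:136452409-136452468, minus strand: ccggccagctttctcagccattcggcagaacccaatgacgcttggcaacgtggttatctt
C1qb, chr4:136436578-136436637, minus strand: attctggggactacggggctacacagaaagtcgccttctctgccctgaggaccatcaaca
C1qc, chr4:136445766-136445825, minus strand: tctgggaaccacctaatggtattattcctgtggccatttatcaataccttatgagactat
C3 probe 1, chr17:57343416-57343475, minus strand: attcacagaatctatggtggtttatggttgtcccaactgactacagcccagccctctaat
C3 probe 2, chr17:57343678-57343737, minus strand: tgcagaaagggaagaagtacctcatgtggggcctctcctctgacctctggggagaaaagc
Cfb probe 1, chr17:34993502-34993858, minus strand: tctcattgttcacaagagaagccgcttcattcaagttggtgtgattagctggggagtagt
Cfb probe 2, chr17:34994617-34994676, minus strand: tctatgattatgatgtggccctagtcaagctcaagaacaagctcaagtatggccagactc
The C1q probes share 1 stretch of 15.9 kb on chromosome 4, and the C2, Cfb and C4b probes lie within 134 kb on chromosome 17. The first Cfb probe covers 357 bases of genome with 60 bases of sequence, so it crosses at least 1 gap in the genome, whereas the second matches an unbroken stretch.

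All 9 genes were measured on both arrays, through 11 of their 13 probes. C1qb, C1qc and C3 were at least 2-fold higher on the KO-labelled array, 0 were at least 2-fold lower and 6 were neither. The background shares over the 19753 measured genes were 4.80% for a 2-fold or greater excess on the KO-labelled array and 5.04% for the reverse. These shares are the background for every count below on the reported scale. Under normexp background correction they were 1.86% and 2.91%, and under a stricter filter on dim probes 3.46% and 4.63%. The median difference of the 9 genes was 0.74, beside −0.06 over all measured genes, and 7 lay above 0 and 2 below. The differences ran from −0.23 for C2 to 1.81 for C3. The members were chosen with earlier results of these data known, so these counts are descriptions. In bulk tissue, more cells of a type and more RNA per cell cannot be told apart.

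**Figure D1:**
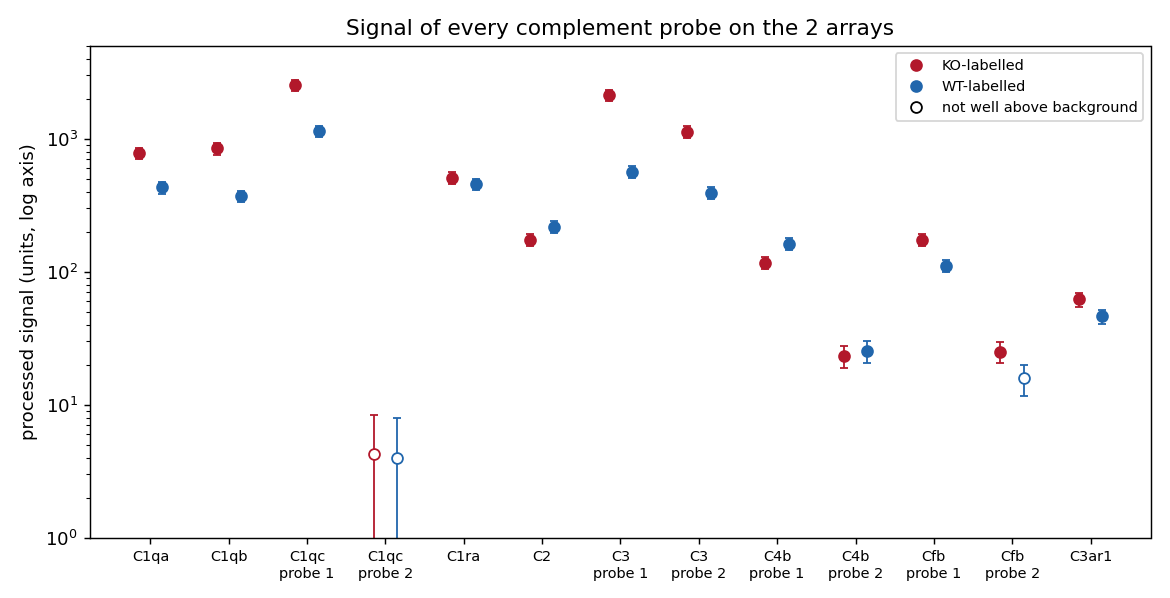
Processed signal (log axis) of all 13 probes of the 9 genes, KO-labelled in red to the left of WT-labelled in blue, with bars for the scanner software's error of the spot and open circles where a spot was not well above background (bars that reach the lower edge are cut there). Both C3 probes and the measured probes of C1qa, C1qb and C1qc stand higher on the KO-labelled array, while C2 and C4b stand slightly lower.

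The 3 chains of C1q, the recognition molecule of the classical pathway, were higher together. C1qa read 781 ± 78.2 signal units on the KO-labelled array and 431 ± 43.3 on the WT-labelled array, where ± is the scanner software's error. C1qb read 847 ± 84.8 and 370 ± 37.1 in the same order, and the measured C1qc probe read 2538 ± 254 on the KO-labelled and 1146 ± 115 on the WT-labelled array. Each chain's bars lay clear of each other. After scaling, the differences were 0.94 for C1qa, 1.28 for C1qb and 1.23 for C1qc, with a scanner error of 0.20 to 0.21 on each, so C1qa, at 1.92-fold, lay just under the threshold that its partners, at 2.43-fold and 2.35-fold, passed. Over all measured genes, 94.5% had a smaller difference than C1qa, 97.5% than C1qb and 97.2% than C1qc. A second C1qc probe, on another transcript model, was not well above background on either array and gave no level.

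The other classical pathway genes among the members, C1ra, C2 and C4b, did not share this size of difference. C1ra, which encodes the protease C1r, read 511 ± 51.2 on the KO-labelled and 456 ± 45.8 on the WT-labelled array, a difference of 0.25 that turned to −0.21 on the spike-in scale. C2, the protease part of the classical C3 convertase, read 174 ± 18.0 and 217 ± 22.2 units (KO-labelled, then WT-labelled), a difference of −0.23. The error bars of C1ra overlapped, and those of C2 were separated by a few units. C4b encodes C4, the protein that anchors that convertase to surfaces, and its brighter probe read 117 ± 12.3 on the KO-labelled and 163 ± 16.7 on the WT-labelled array. Its other probe, close to background, read 23.3 ± 4.49 and 25.5 ± 4.70 units in that order, so the probes differed by −0.39 and −0.04 and the gene by −0.22 ± 0.25 (SD, n = 2 probes). C4b has a near-identical neighbour, C4a, whose own probe was not well above background on either array, and C4b signal may include transcripts of both copies.

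Among the other genes of the classical pathway, the C1r paralogue C1rb and the genes of the protease C1s, C1s1 and C1s2, stayed within 0.20 of 0 (−0.16, 0.20 and −0.05). Over the classical pathway, C1qb and C1qc alone among 9 measured genes passed 2-fold. The pathway was thus split on these arrays by size of difference, with the C1q chains at 0.94 or more and the other 6 genes, C1ra, C1rb, C1s1, C1s2, C2 and C4b, between −0.23 and 0.25. C1rb was dim (30.1 units on the KO-labelled and 35.7 on the WT-labelled array).

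C3, the protein on which the pathways converge, had the greatest difference of the 9. Its first probe read 2137 ± 214 signal units on the KO-labelled array and 567 ± 56.9 on the WT-labelled array, and its second, in the same stretch of 322 bases, read 1127 ± 113 and 392 ± 39.4 in that order. Both probes were several times their error apart, with differences of 2.0 and 1.61. The gene differed by 1.81 ± 0.28 (SD, n = 2 probes), or 3.49-fold higher, and 141 of 19753 genes had a greater difference. C3 passed 2-fold in all 11 alternatives of processing, from 1.34 to 2.0.

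Cfb, which encodes factor B, the protease part of the alternative C3 convertase, did not reach 2-fold. Its first probe read 175 ± 17.9 on the KO-labelled and 111 ± 11.8 on the WT-labelled array, a difference of 0.74. The second probe was well above background on the KO-labelled array alone, at 25.2 ± 4.61 units, against 15.9 ± 4.21 on the WT-labelled array. The second probe has no reliable WT-labelled level and gives no difference. Cfp encodes properdin, which stabilises that convertase, and differed by 0.29 ± 0.15 (SD, n = 2 probes). Cfd, the protease that activates factor B, was not well above background on either array.

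C3ar1, the receptor for the C3a fragment, was dim. It read 62.1 ± 7.25 units on the KO-labelled and 46.2 ± 5.87 on the WT-labelled array, a difference of 0.51 with a scanner error of 0.25. Its difference was 0.05 on the spike-in scale and between 0.25 and 0.51 in the other alternatives that could give it.

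**Figure D2:**
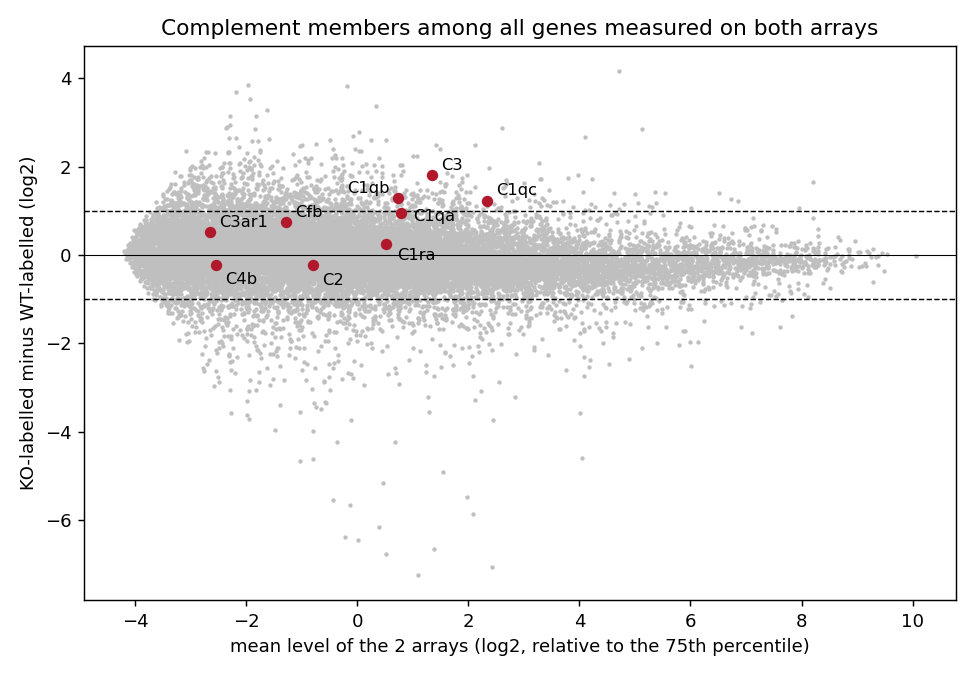
Difference (KO-labelled minus WT-labelled, log2) against the mean level of both arrays for the 19753 genes measured on both, grey, with the 9 complement genes in red and dashed lines at 2-fold. C3, C1qb and C1qc lie above the upper line, C1qa just below it at 0.94, and C2 and C4b slightly below 0.

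Promoter windows, from 250 bases before to 50 after the gene start, were in the RefSeq-based table (GRCm38.p6) for 5 of the 9 genes: C1qb, C1qc, C1ra, C3 and C3ar1. Those of the 3 called genes are shown because these genes differed in the same direction. Capitals mark matches, on either strand, to GAGGAAGT (ETS factors), TTCNNNGAA (STAT), TTGCNNAA (C/EBP), a loose NF-kB motif with a free middle or a motif of interferon-regulated genes. The strict NF-kB motif and the interferon motif had no match in the 5 windows (0.155% and 3.44% of all windows hold them).
C1qb, chr4:136886151-136886450, minus strand: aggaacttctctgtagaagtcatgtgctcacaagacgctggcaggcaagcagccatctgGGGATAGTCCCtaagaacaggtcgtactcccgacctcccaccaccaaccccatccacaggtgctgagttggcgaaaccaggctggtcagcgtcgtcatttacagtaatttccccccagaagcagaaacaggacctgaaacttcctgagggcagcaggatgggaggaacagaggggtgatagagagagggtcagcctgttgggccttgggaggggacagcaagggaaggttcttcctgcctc
C1qc, chr4:136892865-136893164, minus strand: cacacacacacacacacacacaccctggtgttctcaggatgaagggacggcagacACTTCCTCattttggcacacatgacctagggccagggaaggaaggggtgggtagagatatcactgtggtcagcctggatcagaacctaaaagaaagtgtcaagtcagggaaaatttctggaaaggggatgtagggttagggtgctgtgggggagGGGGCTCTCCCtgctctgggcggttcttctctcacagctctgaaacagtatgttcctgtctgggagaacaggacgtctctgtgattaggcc
C3, chr17:57228087-57228386, minus strand: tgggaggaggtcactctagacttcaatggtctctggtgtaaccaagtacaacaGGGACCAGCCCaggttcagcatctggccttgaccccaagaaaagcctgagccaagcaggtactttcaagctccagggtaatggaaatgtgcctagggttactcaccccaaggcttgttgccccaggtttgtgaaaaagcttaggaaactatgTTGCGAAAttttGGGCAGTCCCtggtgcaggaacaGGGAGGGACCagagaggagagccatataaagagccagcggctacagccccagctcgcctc
The loose NF-kB motif occurred in all 3 windows, and also in 50.8% of 32851 promoter windows in the table. It was found as well in the window of C3ar1, which was not called, and not in that of C1ra. The longer ETS match stood in C1qc (3.20% of windows hold it) and the C/EBP match in C3, 45 bases before the gene start (position −45; 10.8% of windows hold it). In C1qb and C1qc the loose NF-kB matches overlap one another. In C3 those at −197 and −196 overlap, the stretch at −33 matches on both strands, and the match at −10 stands apart. The C1ra window, of a gene near 0, also held a C/EBP and a STAT match (8.30% of windows hold the latter motif). The short ETS core GGAA was in every one of the 5 windows and in 96.0% of all windows. Such matches describe letters and are not evidence of binding.

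The rest of the complement system was taken from a list of 53 further gene names, of which 49 have probes and 27 were measured on both arrays. Of these, 7 passed 2-fold upward on the KO-labelled array, 2 downward and 18 in neither direction, with a median of 0.34. Over all measured genes, 4.80% passed upward and 5.04% downward, with a median of −0.06. Those higher were 4 regulators, Cd59a, Susd4, Cd55 and Clu, the receptor genes C5ar1 and Itgax, and the terminal pathway gene C9. Those lower were Cpn1 and Fcna. A further 18 genes were not well above background on either array, among them the terminal genes Hc, C6, C8a and C8b and the mannose-binding lectin genes Mbl1 and Mbl2.

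**Figure D3:**
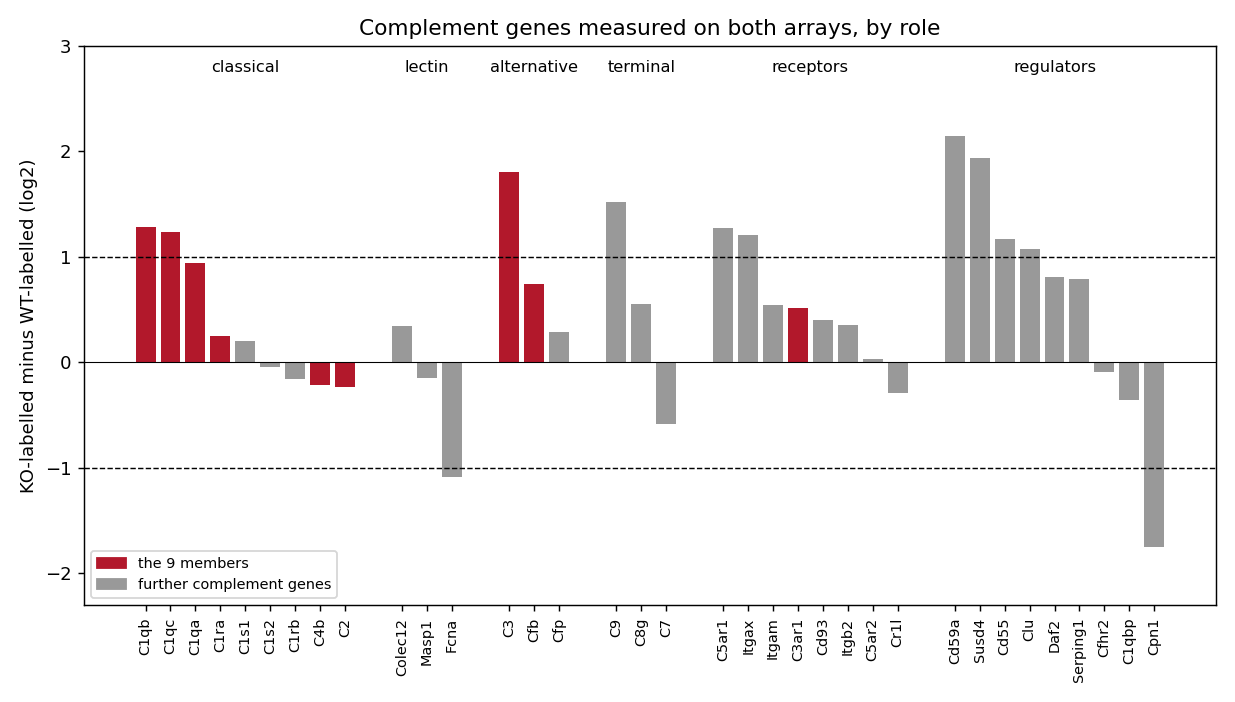
Difference (KO-labelled minus WT-labelled, log2) of complement genes measured on both arrays, grouped by role, with the 9 members in red, further genes in grey and dashed lines at 2-fold (1 regulator is not drawn). C1qb, C1qc, C3, C9, C5ar1, Itgax and 4 regulators pass the upper line, and Fcna and Cpn1 the lower one.

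Some regulators that protect host cells were among the higher genes. Among 10 measured, 4 passed 2-fold upward, 1 downward and 5 in neither direction (median 0.80), and on the spike-in scale 2 passed upward (median 0.33). Cd59a, which blocks assembly of the membrane pore, read 734 units on the KO-labelled and 289 on the WT-labelled array with its brighter probe, a difference of 1.43, and 186 and 27.3 with the other, a difference of 2.85. Its probes pointed the same way and disagreed in size, and the gene differed by 2.14 ± 1.01 (SD, n = 2 probes). Cd55, which speeds the decay of C3 convertases, differed by 1.17 ± 0.42 (SD, n = 3 probes). Clu, which encodes clusterin, a chaperone that binds terminal complexes, read 30526 units on the KO-labelled and 15426 on the WT-labelled array, a difference of 1.07. Susd4 differed by 1.94. Serping1, the inhibitor of C1r and C1s, differed by 0.79. Cr1l, a membrane regulator counted here with the receptors and not among these 10, differed by −0.29 ± 0.13 (SD, n = 2 probes). Cpn1, the catalytic chain of the carboxypeptidase that inactivates C3a and C5a, differed by −1.75, from 54.4 units on the KO-labelled and 194 on the WT-labelled array.

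Most receptors did not reach 2-fold. Among 8 measured, 2 passed 2-fold upward, 0 downward and 6 in neither direction (median 0.46). Upward calls came to 1 under normexp or the stricter filter on dim probes and to 0 on the spike-in scale, where the median was −0.01. C5ar1, the C5a receptor, read 87.7 units on the KO-labelled and 38.4 on the WT-labelled array, where it was dim, a difference of 1.28. The second C5a receptor gene, C5ar2, differed by 0.03. Itgax, the alpha chain of an integrin that binds iC3b, differed by 1.21, its relative Itgam by 0.54 and their shared beta chain Itgb2 by 0.35. The C5a ligand's own gene, Hc, gave no level on either array.

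In the terminal pathway, C9, the pore-forming component, read 322 units on the KO-labelled and 120 on the WT-labelled array, a difference of 1.52. C7 differed by −0.59 and C8g by 0.55, both from weak signals. In the lectin pathway, Fcna, a ficolin, differed by −1.09 from weak signals (23.3 units on the KO-labelled and 52.5 on the WT-labelled array). The lectin protease gene Masp2 was above background on the KO-labelled array alone, through 2 of its probes, and was at least 3.17-fold higher there. That bound sets its KO-labelled level against the WT-labelled array's lowest signal well above background, or the probe's own signal where that is higher. Colec11 and Cr2 were above background on the WT-labelled array alone and Cd59b on the KO-labelled array alone, each with a bound under 2-fold.

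Markers of macrophages moved with the C1q chains. Among 14 measured, 7 passed 2-fold upward on the KO-labelled array, 2 downward and 5 in neither direction, with a median of 0.96. Upward calls came to 4 under normexp (median 0.64) and to 3 on the spike-in scale (median 0.50). The summed relative level of the 14 was 37.0 on the KO-labelled and 21.7 on the WT-labelled array, as multiples of the 75th percentile. The fractalkine receptor gene Cx3cr1 differed by 2.78, the microglia and macrophage gene Aif1 by 1.79 and the Fc receptor gene Fcgr1 by 1.71. Folr2, Timd4 and Spi1 were not well above background on either array. The part of macrophages in the C1q differences was not tested.

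Markers of fibroblasts and keratinocytes had medians near 0. None of the 11 fibroblast markers measured passed 2-fold, and their median was 0.10, which turned to −0.37 on the spike-in scale, to −0.14 with the brightest probe per gene and to −0.03 without a filter on dim probes. The 14 keratinocyte markers had a median of −0.01 (1 higher, 2 lower and 11 neither), which turned to 0.11 under quantile and 0.21 under loess normalization and was 0.05 in the authors' deposited values. Of 6 hepatocyte markers, Alb, Apoa1, Ttr and Fgb were not well above background on either array. The other 2, Ahsg and Serpina1a, differed by −1.38 and −0.68, both from weak signals. Under normexp 0 of these 2 passed 2-fold (median −0.42), and the stricter filter on dim probes kept 0 of them. The 6 sebaceous gland markers measured were all at least 2-fold lower on the KO-labelled array (median −5.91), and 4 of 6 mast cell markers were too (median −1.65). The part of these cells in the complement differences was not tested.

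Genes that answer to signals known to raise complement transcription are given for comparison. Among 12 genes induced by interferon, 4 passed 2-fold upward, 0 downward and 8 in neither direction (median 0.49), led by Isg15 at 1.53. Upward calls came to 1 under normexp (median 0.34), to 1 on the spike-in scale (median 0.03) and to 1 of 8 with the stricter filter on dim probes (median 0.05). Among 15 acute phase genes and their regulators, 2 passed upward, 2 downward and 11 in neither direction (median −0.19), with the cytokine gene Osm at 1.39 on the high side and Saa2 at −2.25 and Il6 at −2.21 on the low side. On the spike-in scale 0 acute phase genes passed upward and 5 downward, and with the stricter filter 2 of 13 passed upward and 0 downward. The part of these signals in the C3 and Cfb differences was not tested.

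**Figure D4:**
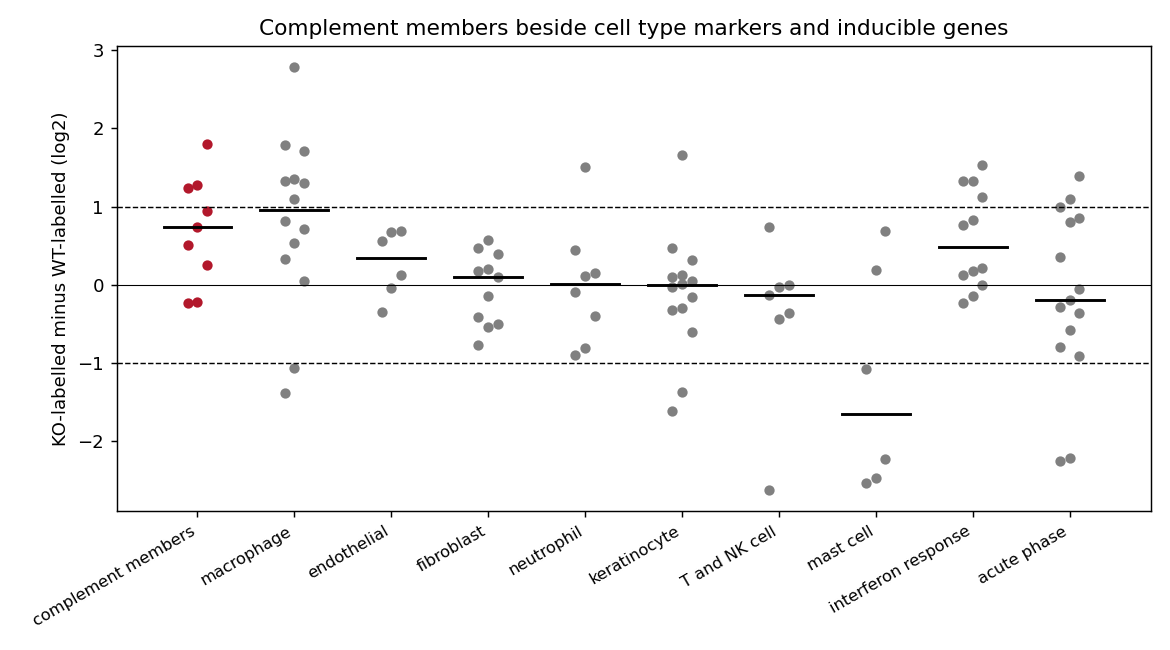
Difference (KO-labelled minus WT-labelled, log2) of each measured gene in the 9 complement members (red) and in marker and inducible lists (grey), with black bars for medians and dashed lines at 2-fold. The complement members have a median of 0.74, the macrophage markers 0.96, the fibroblast markers 0.10 and the keratinocyte markers −0.01.

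The processing moved C1qa across the threshold and left C3 past it. C1qa ranged from 0.48 to 1.03 over 11 alternatives and passed 2-fold in 3 of them. C1qb ranged from 0.82 to 1.37 and passed in 10, and C1qc from 0.71 to 1.41 and passed in 9. All 3 C1q chains lay above 0 in every one of these alternatives, as did C3 and Cfb, while C2 and C4b lay below 0. In the authors' deposited table, C1qa differed by 1.03, C1qb by 1.37 and C1qc by 1.41.

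**Figure D5:**
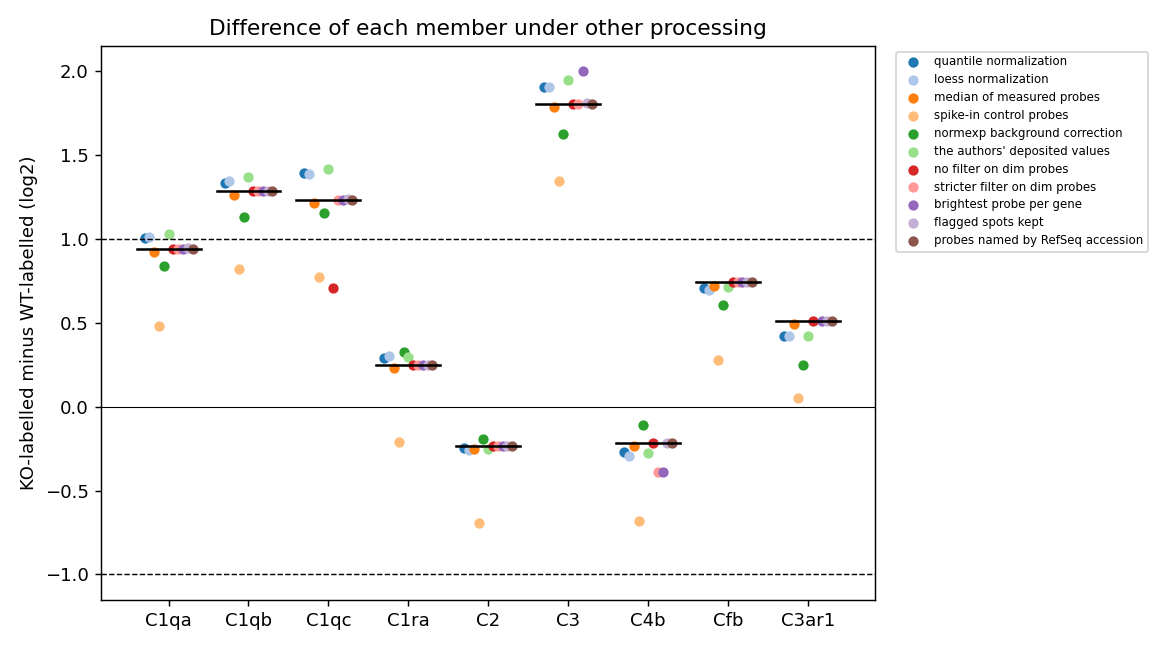
Difference (KO-labelled minus WT-labelled, log2) of each of the 9 genes, with a black bar for the reported value, a coloured point for each of the 11 alternatives that could give one and dashed lines at 2-fold. C3 stays above the upper line throughout, the C1q chains straddle or pass it, and the spike-in scale gives the lowest point for most genes.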

How the data were processed

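Total RNA was labelled with Cy3 from 0.2 µg per sample, per the labels' protocols. The authors read spot intensity in Agilent Feature Extraction (version 10.7.1.1, per the submitters' processing notes), with spatial and multiplicative detrending on and local background correction off, per the file headers. The authors also deposited log2 values whose columns correlate at 0.9997 (KO-labelled) and 0.9999 (WT-labelled) across 56594 probes with the scanner log2 signal and share a median of 4.96. The sources used here do not say how they were normalized.

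Flagged spots were left out (105 KO-labelled, 102 WT-labelled), spots of a probe were averaged, and log2 processed signal was set relative to each array's 75th percentile. A gene is the mean of its probes well above background on both arrays, 29992 in all. The named genes are all members, further complement genes past 2-fold with up to 4 other examples per class, P2ry6, and up to 4 measured markers of greatest difference per list, and some genes this rule would name are not reported here. Members and lists were chosen with earlier results of these data known. The steps were tested on simulated data with known shifts. Alternatives used R 4.3.3 with limma 3.58.1 (normexp with an offset of 50, loess with a span of 0.3), and the rest Python 3.11.15 with pandas 2.3.3.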

Additional observations from a re-analysis of the deposited data

How the results depend on the processing

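The counts of members and of further complement genes past 2-fold in each direction, and the members' median, gave 55 values under 11 alternatives, and 49 stayed within 1.5 times the reported count or the spread between probes. On the scale of 8 spike-in probes, which lowers every difference by 0.46, 1 member (C3) and 3 further genes were at least 2-fold higher, and the members' median was 0.28 beside −0.52 for all genes. There 317 of all genes were at least 2-fold higher and 3109 lower, whereas normexp left 368 and 575. Further genes at least 2-fold lower came to 1 of 27 under normexp and to 0 under a stricter filter, which keeps fewer genes (19 of the 27). Without a filter on dim probes they came to 5 of 49, since genes not well above background are then counted. In that setting 5.71% of all genes were at least 2-fold lower. Of 98 values of single members, 88 moved by less than the SD between probes of a gene. Without a filter on dim probes C1qc differed by 0.71, since its probe below background is then averaged in. No paired analysis was possible because each genotype has 1 array. Weak signals limit C3ar1, C5ar1, the second C4b and Cfb probes, the dimmer Cd59a probe, C1rb, Cpn1, Masp2, C7, C8g and Fcna.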
